A study of Cephalotaxus fortunei with 9 samples.

Results

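Stem and root of Cephalotaxus fortunei were compared across all transcripts, using 6 of the 9 libraries of a study on the enzymes that make the cephalotaxine and homoerythrina alkaloids of this conifer. All 3 stem and all 3 root libraries were taken by their tissue label. The labels give no genotype, treatment, age or plant for either tissue, and the p-values below therefore reflect variation among the sequenced samples, part of which may be technical. RNA came from ground tissue, in which fewer cells of a type and less RNA per cell cannot be told apart. The transcripts carry running numbers that are not paired with gene names or sequences. No list of named genes or cell type markers could therefore be matched, and transcripts are described by level, rank, length and tissue.

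In a conifer the stem carries the vascular cambium, which forms wood to the inside and phloem to the outside, and young stems keep a green cortex that can photosynthesise. The root takes up water and mineral nutrients and supplies the shoot through the xylem. Cephalotaxine-type alkaloids include the ester homoharringtonine, a drug used in leukaemia, and the series text states that expression across organs served to select candidate sequences for their synthesis.

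Library totals ran from 18417327 to 19652495 estimated reads in stem and from 7117807 to 8093638 in root. The first 2 root replicates differed by less than the noise of read sampling, with a chi-square statistic per degree of freedom of 0.527 against 28.8 and 29.4 for their comparisons with root replicate 3. They were averaged and counted as 1 sample, which left 3 stem and 2 root samples. The 2 root samples also stood apart from each other: root replicate 3 had 2606 transcripts at 0 reads, against 8706 and 8747 in replicates 1 and 2 (reads rounded to whole numbers). The main counts are therefore also given with each root sample alone.

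More transcripts were called higher in root than in stem, and this excess lay among transcripts of low level. Among the more abundant transcripts, more were called higher in stem, although most stem calls were not at the highest levels. The scaling between libraries sets this balance in part. The stem share of calls was 38.9% with TMM, the scaling used here, and 23.7% with library totals alone. Which scaling is nearer to the true balance was not tested. Of 24564 transcripts tested, 52% were called (edgeR quasi-likelihood test, Benjamini-Hochberg adjusted p under 0.05 and at least 2-fold). Stem was higher for 20.3% and root for 31.8% of those tested. The distribution of fold changes was lopsided: its 5th, 25th, 50th, 75th and 95th percentiles lay at -9.09, -2.43, -0.46, 0.97 and 3.79 on the log2 scale, stem over root. The median log2 fold change of calls was 2.19 in favour of stem and 3.75 in favour of root.

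The number of calls higher in root depended on having 2 root samples. With root replicates 1 and 2 as the only root sample, 43.4% of the same 24564 transcripts were called, 5030 higher in stem and 5638 higher in root (20.5% and 23% of those tested). With root replicate 3 alone, 44% were called, 4901 higher in stem and 5900 higher in root (20% and 24%). The stem count thus hardly moved, while the root count was 7809 with both samples. A fit with 1 root sample assumes that it varies like the other tissues.

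Fold sizes were larger on the root side whichever root sample was used. For transcripts without a read in a tissue, a floor of 3 reads over that tissue's samples was used, which makes the fold a lower bound. The floor was 0.0683 CPM (reads as a share of the library) in stem and 0.165 CPM in root, so the same bound needs a higher level in stem. On this scale 2475 transcripts were at least 32-fold higher in root and 508 at least 32-fold higher in stem. With root replicates 1 and 2 alone these numbers were 2144 and 587, and with root replicate 3 alone they were 2240 and 459. At least 32-fold differences made up 31.7% of the calls higher in root and 10.2% of those higher in stem. At the other end, 1661 of the root calls (21.3%) and 2174 of the stem calls (43.7%) lay between 2-fold and 4-fold.

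**Figure D1:**
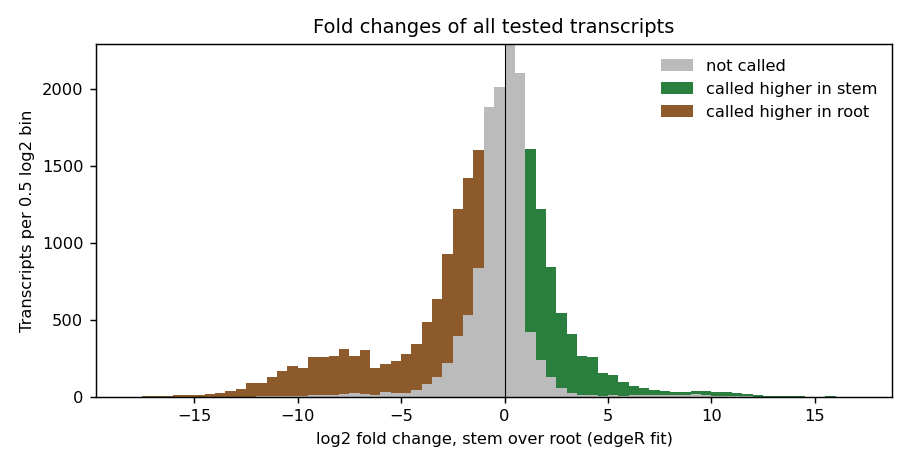
Histogram of the log2 fold change, stem over root, of all 24564 tested transcripts in bins of 0.5, from the fit with both root samples; grey marks transcripts not called, green those called higher in stem and brown those called higher in root. More transcripts lie beyond -6 on the root side than beyond 6 on the stem side, 2756 and 348 of the called ones, and fitted values there depend on the prior count where stem had 0 reads.

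Beyond a log2 fold change of -6 (64-fold), the number of transcripts on the root side rose a second time, through transcripts with 0 reads in stem. The number of transcripts per log2 unit fell from 3025 between -2 and -1 to 442 between -6 and -5. It then rose to 578 between -8 and -7 and was still 444 between -10 and -9. Transcripts with reads in stem showed no such rise. Their number fell from 369 between -6 and -5 to 202 between -7 and -6 and 107 between -8 and -7. Between -10 and -9 it was 43. On the stem side the number of all transcripts was 235 between 5 and 6, 81 between 7 and 8, 62 between 8 and 9 and 72 between 9 and 10. With root replicate 3 alone, the stem side had 88 between 8 and 9 and 119 between 9 and 10. It was larger with root replicates 1 and 2 alone, at 238 between 7 and 8, 162 between 8 and 9 and 170 between 9 and 10. The 2 sides were thus less unequal against that root sample. In the fits with 1 root sample the number also rose again, from 358 between -6 and -5 to 520 between -7 and -6 with root replicates 1 and 2, and from 405 to 584 (between -8 and -7) with root replicate 3. The fitted fold change of a transcript with 0 reads in stem depends on the prior count of the model, and so does its place in this distribution.

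Beyond -6 lay 2756 called transcripts, 11.2% of those tested, of which 2283 had 0 reads in all 3 stem libraries and 473 had reads in stem. They were not rare in root. They held 20.7% of TPM, Salmon's length-scaled abundance, in the averaged root replicates and 18.5% in replicate 3, against 0.0156% to 0.0163% in the stem libraries. In leaf they held 0.773% to 0.792% of TPM, and 1714 of them (62.2%) had 0 reads in all 3 leaf libraries. Their median length was 1274 bases, and their median level was 7.57 TPM in the averaged root replicates and 6.12 TPM in replicate 3. The corresponding group on the stem side, at least 64-fold higher in stem, had 348 transcripts. It held 11.2% to 12.1% of stem TPM, 4.01% to 4.23% of leaf TPM, and 0.0853% and 0.114% in the root samples. These groups were delimited after the fold changes were seen and are given as a description. The fits with each root sample alone both placed 1804 transcripts beyond 64-fold on the root side and 253 on the stem side.

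Transcripts with 0 reads in the lower tissue passed the expression filter only through reads in the other tissues. When every library was thinned to the 7117740 reads of the smallest, 44.1% to 46.3% of the 7809 transcripts called higher in root had 0 reads in a given stem library, against 18.7% to 20.4% of all tested transcripts. Of the 4975 called higher in stem, 8.58% and 8.5% had 0 reads in the near-identical root pair and 5.03% in root replicate 3, against 6.3%, 6.27% and 3.02% of all tested transcripts. As deposited, with stem sequenced more deeply, the stem shares were 37.6% to 39.7%. Salmon divides reads among similar transcripts, so a transcript listed at 0 reads may have lost them to a near-identical copy.

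The direction of the calls changed with expression level. Transcripts were divided by the mean of their stem and root levels in CPM after TMM scaling. Below 1 CPM, 3.7% of 4598 transcripts were called higher in stem and 36.4% higher in root. Between 1 and 10 CPM the shares were 14.3% and 40.6% of 10520 transcripts. Between 10 and 100 CPM the order was the reverse, with 32.9% higher in stem and 22.1% higher in root of 7079 transcripts, an order that holds under TMM but not with library totals. At 100 CPM or more, 41.1% of 2367 transcripts were called higher in stem and 12.8% higher in root. The shares at high level were similar with each root sample alone, 39.3% and 13.9% with root replicates 1 and 2, and 43.1% and 12% with root replicate 3. The root share below 1 CPM was not: it was 10.8% with root replicates 1 and 2 and 16.6% with root replicate 3. The scaling bears on this order. With library totals alone in place of TMM, stem calls still outnumbered root calls at 100 CPM or more, 640 against 521, compared with 972 and 302 under TMM. Between 10 and 100 CPM the order flipped, to 1548 higher in stem and 2212 higher in root, compared with 2332 and 1561 under TMM.

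**Figure D2:**
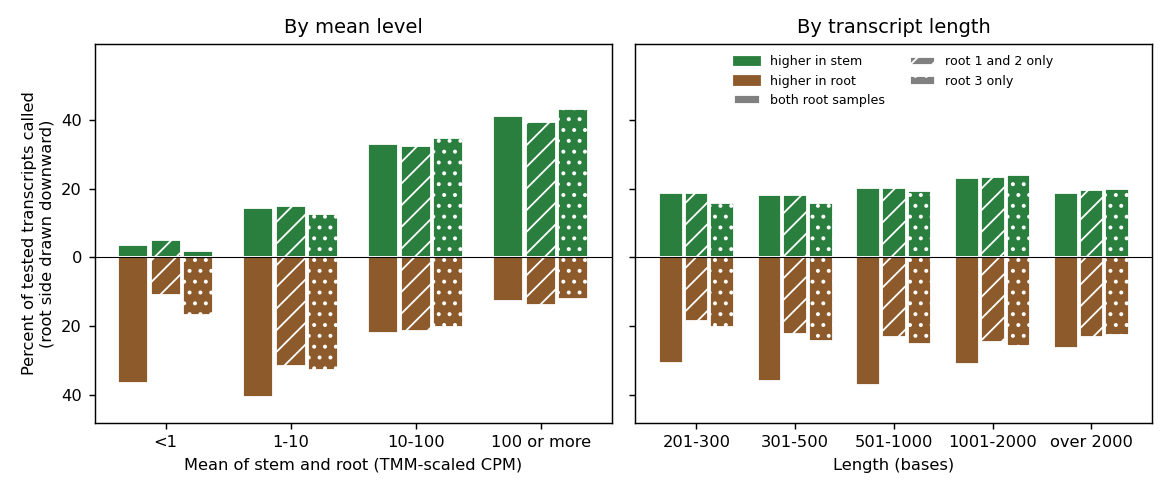
Percent of tested transcripts called higher in stem (green, upward) and higher in root (brown, downward), by mean TMM-scaled CPM (left) and by transcript length in bases (right); plain bars use both root samples, striped bars root replicates 1 and 2 only and dotted bars root replicate 3 only. Stem calls rise with level, from 3.7% below 1 CPM to 41.1% at 100 CPM or more with both root samples.

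Short transcripts differed in how reads convert to abundance in the 2 tissues. Effective length is the length that Salmon uses to turn reads into TPM. It exceeded the listed length for 6.84% to 10.6% of transcripts in the stem and root libraries. It is therefore not a plain count of the start positions a fragment can take. For transcripts of at most 300 bases, the median effective length was 82 bases in stem, 39 in the averaged root replicates and 35 in replicate 3. Above 1000 bases the tissues differed little, with medians of 1140, 1122 and 1106 bases for transcripts of up to 2000 bases. On read counts, 18.8% of the 2226 shortest transcripts were called higher in stem and 30.7% higher in root. With effective lengths as an offset in the model, these shares were 9.25% and 52.7%. For transcripts over 1000 and up to 2000 bases the offset left the shares at 23.6% and 30.8%, against 23.2% and 30.9% without it. For the 3504 transcripts over 300 and up to 500 bases, the offset moved the stem share from 18.0% to 14.0%. It moved the root share from 35.9% to 43.6%. Limma on log2(TPM + 1) put the root share at 52.3%, but it also leaves out TMM. Library totals alone, on reads, put it at 46.5%. The shares called among transcripts of up to 500 bases therefore depend on whether effective lengths are taken into account, and also on the scaling between libraries.

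What held in both root samples was examined with the fits that used each of them alone. In the same direction in both of these fits, 36% of tested transcripts were called, 4123 higher in stem (16.8%) and 4724 higher in root (19.2%). The balance moved with scaling, to 2620 and 6954 with library totals alone and to 2956 and 7563 with limma on log2(TPM + 1). The stem calls common to both fits were 82% of those against root replicates 1 and 2 and 84.1% of those against root replicate 3. For the root calls these shares were 83.8% and 80.1%. Both fits share the 3 stem libraries, so these shares describe the lists and are not independent tests. Opposite calls were few: 19 transcripts were called higher in stem than in root replicates 1 and 2 but lower than in root replicate 3, and 10 had the reverse pattern.

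Transcripts that were called with both root samples but did not hold in each were mostly of low level. All 4724 root calls common to the single-sample fits were also called with both samples, and they had a median level of 9.65 CPM in the higher tissue. The other 3085 root calls had a median of 2.05 CPM and a median length of 725 bases, against 1208 bases for those that held. Of these 3085, 1440 were called with neither root sample alone. Among stem calls, 4072 of 4975 held (81.8%), with a median of 46.3 CPM against 8.03 CPM for the 903 that did not. The 2 root samples had close medians for the root transcripts that held, at 9.63 CPM in replicates 1 and 2 and 9.25 CPM in replicate 3. For the root calls that did not hold the medians were also close, at 1.83 and 2.14 CPM, so closeness does not set apart those that held.

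The libraries of the tissues did not overlap for most called transcripts. All 3 stem libraries lay above both root samples in 32.1% of tested transcripts, and both root samples lay above all 3 stem libraries in 44.9%. Of the stem calls, 4969 of 4975 were separated in this way, and 7744 of 7809 root calls were. The calls were made on these same samples, so separation largely follows from being called and is no further evidence. The 2 root samples fell on opposite sides of all 3 stem libraries in 407 transcripts with replicates 1 and 2 above, and in 473 with replicate 3 above.

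Leaf was in the same model and gave a reference for where these transcripts stood in the other shoot organ. For the 4123 transcripts that were higher in stem in both single-sample fits, the median was 45.9 CPM in stem, 6.54 CPM in root and 23.3 CPM in leaf. For the 4724 higher in root, the median was 9.65 CPM in root, 0.299 CPM in stem and 1.16 CPM in leaf. On a log2(CPM + 0.1) scale the leaf mean was nearer to stem than to root for 62.2% of the first list and 67.3% of the second. The share over all tested transcripts is not given here, so these shares cannot be read as a trait of the lists.

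The most abundant transcripts of the 2 tissues were largely different. Of the 100 transcripts with the highest TPM in stem and the 100 highest in root, 27 were in both lists. Single pairs of a stem library and a root sample shared 27 to 31. Pairs of stem libraries shared 88 to 92, and the 2 root samples shared 81. Among the 20 highest, stem and root shared 2, the stem pairs shared 20 and the root samples shared 16. In longer lists the overlap was larger, 39.4% of the top 500 and 46.4% of the top 1000.

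Rank shifts by TPM were asymmetric. They are given by TPM only, and both lists held more short transcripts by TPM than by CPM, the root list most. The 100 highest stem transcripts had a median rank of 255 in root replicates 1 and 2 and of 251.5 in root replicate 3, and 26 of them ranked below place 1000 in both root samples. The 100 highest root transcripts had a median rank of 868.5 to 956.5 in the stem libraries. Of these, 34 ranked below place 10000 in every stem library, whereas 8 of the 100 highest stem transcripts did so in both root samples. By mean stem level, 27 of the root list ranked within the first 100, 23 from there to place 1000, 16 from there to place 10000 and 34 lower. In the root list, 27 transcripts stayed below 1 TPM in every stem library, and 20 of these had 0 stem reads. The 27 together held 10.4% of TPM in the averaged root replicates and 9.63% in replicate 3, and 23 of them stayed below 1 TPM in every leaf library.

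**Figure D3:**
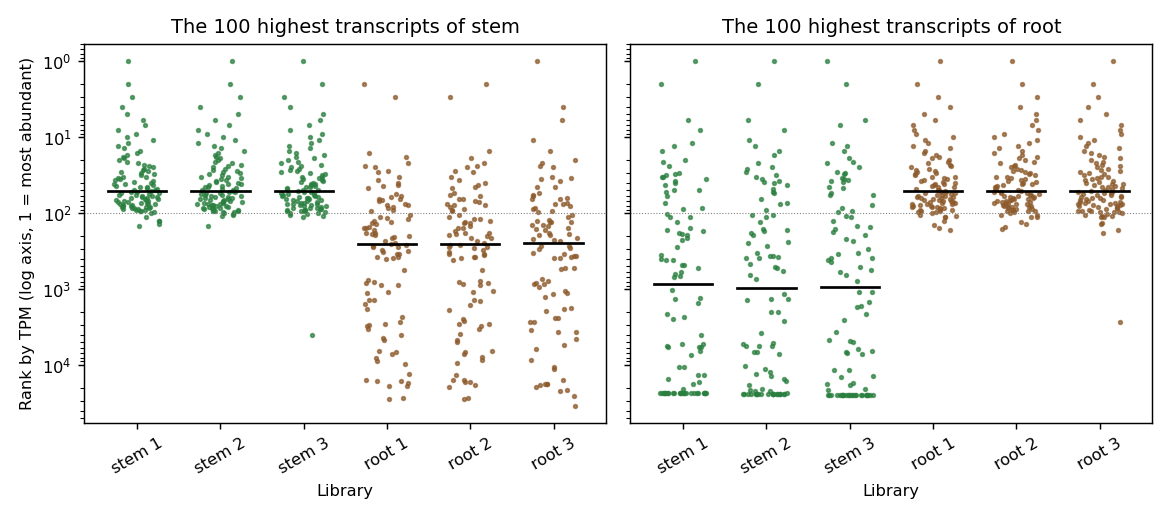
Rank by TPM (log axis, 1 is the most abundant) in each of the 6 libraries of the 100 highest transcripts of stem (left) and of root (right); each point is a transcript, black bars are medians and the dotted line marks rank 100. The root list spreads further in stem, with 34 transcripts beyond rank 10000 in every stem library.

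A fixed level also gave more transcripts on the root side, with a lower limit that fewer transcripts meet in root. Of 37051 listed transcripts, 17687 to 18726 were at or above 1 TPM in the stem libraries. In root these numbers were 25684 and 25673 in the near-identical pair and 32870 in replicate 3. Fewer transcripts could thus count as low in root, and the numbers below carry that difference. At or above 100 TPM in both root samples and below 1 TPM in every stem library were 123 transcripts, with 12.1% to 13.4% of TPM in the root samples. At or above 100 TPM in every stem library and below 1 TPM in both root samples were 5. Against root replicates 1 and 2 alone there were 165 and 32, and against root replicate 3 alone 137 and 11. With a limit of 10 TPM in the other tissue the numbers were closer, 197 for root and 156 for stem. In stem, the 156 took 6.19% ± 0.244 of TPM (SD, n = 3). Their share was 2.02% ± 0.0289 in leaf (SD, n = 3) and 0.0633% and 0.0767% in the root samples.

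As groups, the 100 highest stem transcripts held 36.0% ± 0.710 of stem TPM (SD, n = 3). They held 10.6% of TPM in the averaged root replicates and 18.1% in replicate 3. The 100 highest root transcripts held 27.9% and 33.6% in the 2 root samples and 17.0% ± 0.198 of stem TPM (SD, n = 3). Most of what the 2 lists held in the other tissue came from the 27 shared transcripts, which took 15.7% ± 0.190 of stem TPM (SD, n = 3). Their share was 7.94% in the averaged root replicates and 15.9% in replicate 3. The most abundant transcript of stem, 406 bases long, differed widely between the root samples. It stood at 48247, 46963 and 46209 TPM in stem replicates 1, 2 and 3, at 15360 and 15332 TPM in the near-identical root pair, and at 95014 TPM in root replicate 3. The root samples lay on both sides of stem, and the transcript was not called (log2 fold change 0.78, edgeR adjusted p = 0.31).

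Of the 100 highest stem transcripts, 86 were called higher in stem and 14 were not called, against 20.3% higher in stem over all transcripts. Of the 100 highest root transcripts, 58 were called higher in root, 19 higher in stem and 23 were not called, against 31.8% higher in root over all transcripts. With library totals alone the root list had 67 higher in root and 7 higher in stem, and the stem list 1 and 70. With limma on log2(TPM + 1) these numbers were 69 and 8 for the root list, and 2 and 71 for the stem list. These lists were picked by level in one tissue, which favours that direction. The calls for the 27 shared transcripts depended on scaling: 18 were called higher in stem and 0 higher in root with TMM, 7 and 1 with library totals alone, and 12 and 2 with the effective-length offset. The stem transcript at rank 8, 251 bases long and ranked 4 in root, shows this. It stood at 9805, 9314 and 10112 TPM in stem and at 15599, 15366 and 14920 TPM in root, so that every root library was higher. Its log2 fold change was 1.29 in favour of stem on TMM-scaled reads, 0.65 with library totals alone, -0.31 with effective lengths, and -0.64 on log2(TPM + 1) with limma. No direction is therefore given for it.

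The share of short transcripts in these lists followed the unit. By TPM, 30 of the 100 highest root transcripts and 16 of the stem ones were at most 300 bases long. By CPM, which is not scaled by length, each list had 1 such transcript. The 2 lists of 100 shared 36 transcripts by CPM.

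The number of transcripts that together made up 50% of TPM was 306, 343 and 329 in stem replicates 1, 2 and 3, 619 and 623 in the near-identical root pair, and 508 in root replicate 3. All root values lay above all stem values, with a mean of 326 ± 18.7 for stem (SD, n = 3) against 564.5 ± 79.9 for root (SD, n = 2). The two-sided exact permutation test gave p = 0.10, the smallest value that 3 against 2 samples allow. The leaf libraries needed 505 to 557 transcripts. Shorter lists gave another order: the 10 highest transcripts held 16.5% to 17.5% of TPM in stem, 10.6% and 10.5% in the near-identical root pair and 18.7% in root replicate 3.

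**Figure D4:**
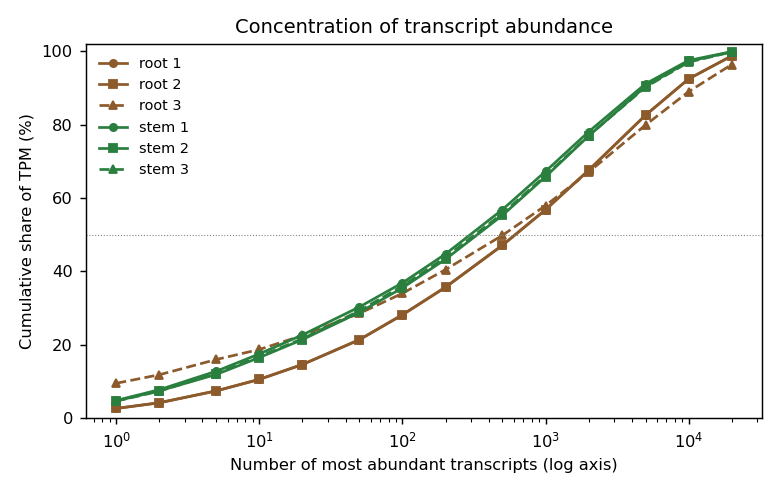
Cumulative share of TPM (%) held by the most abundant transcripts, against their number (log axis), for 3 stem (green) and 3 root (brown) libraries. The stem curves reach 50% at 306 to 343 transcripts and the root curves at 508 to 623, while the first transcript alone gives 9.5% in root replicate 3.

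Of 3037 transcripts higher in stem and 1624 higher in root that were called in all 3 fits, had at least 10 reads in each of the 6 libraries and did not overlap in TPM, the 2 with the highest levels in each direction are described singly. Estimated reads of these 4 transcripts were divided with other transcripts in every library, so part of their level is shared with similar sequences.

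Transcript transcripts_26271 (386 bases) ranked 2 in every stem library. It stood at 29266, 27549 and 27293 TPM in stem replicates 1, 2 and 3, and at 25587 to 29257 TPM in leaf. In root it stood at 2100 and 2088 TPM in replicates 1 and 2 and at 51.9 TPM in replicate 3, so the root samples were far below stem and also far from each other. Its log2 fold change was 5.54 ± 1.36 (SE; edgeR adjusted p = 0.011) with both root samples, 4.58 with root replicates 1 and 2 and 9.85 with root replicate 3. It was 4.95 with library totals alone and 6.40 on log2(TPM + 1) with limma.

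The gap between the root samples seen for transcripts_26271 recurred in a few other transcripts that were abundant in the shoot. Of the 100 highest stem transcripts, 4, including this one, were at least 10-fold higher in root replicates 1 and 2 than in root replicate 3. Together they held 5.17% ± 0.0991 of TPM in stem (SD, n = 3) and 5.12% ± 0.0889 in leaf (SD, n = 3). Their share was 0.528% in the averaged root replicates and 0.0131% in replicate 3. Over the 980 transcripts at or above 100 TPM in every leaf and stem library, 7 were at least 10-fold higher in root replicates 1 and 2 and 10 at least 10-fold higher in root replicate 3. The fold of such transcripts between stem and root rests on which root sample is used.

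Transcript transcripts_15459 (704 bases) ranked 3 in every stem library, at 19937, 17409 and 18729 TPM. It stood at 22.2, 22.7 and 25.5 TPM in root replicates 1, 2 and 3, where it ranked between places 5414 and 6602. The root libraries lay close together and far below every stem library. Its level in leaf, 1588 to 1704 TPM, was between those of stem and root. The log2 fold change was 10.11 ± 0.21 (SE; edgeR adjusted p = 2.97e-07), and it was 10.30 and 9.95 with each root sample alone. With library totals alone it was 9.47.

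Transcript transcripts_21996 (288 bases) was the most abundant of those higher in root under this rule. It stood at 6343, 6249 and 9647 TPM in root replicates 1, 2 and 3 and at 20.4, 21.4 and 16.3 TPM in stem, and leaf was between them at 304 to 445 TPM. Root replicate 3 was the highest library, and no stem library came near root. The log2 fold change on reads was -7.00 ± 0.28 (SE; edgeR adjusted p = 2.04e-06). With effective lengths, which averaged 140 bases in stem and 55.2 bases in root for this transcript, it was -8.37. It was -7.65 with library totals alone and -8.59 on log2(TPM + 1) with limma.

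Transcript transcripts_1253 (565 bases) stood at 6747, 6757 and 5441 TPM in root replicates 1, 2 and 3 and at 536, 465 and 513 TPM in stem. It was thus abundant in both tissues, ranking 5th to 8th in root and 227th to 268th in stem. Leaf, at 703 to 857 TPM, lay above stem and far below root. The log2 fold change was -2.65 ± 0.13 (SE; edgeR adjusted p = 3.87e-06), with -2.72 and -2.57 against each root sample. With effective lengths it was -3.25, with library totals alone -3.29, and on log2(TPM + 1) with limma -3.59.

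**Figure D5:**
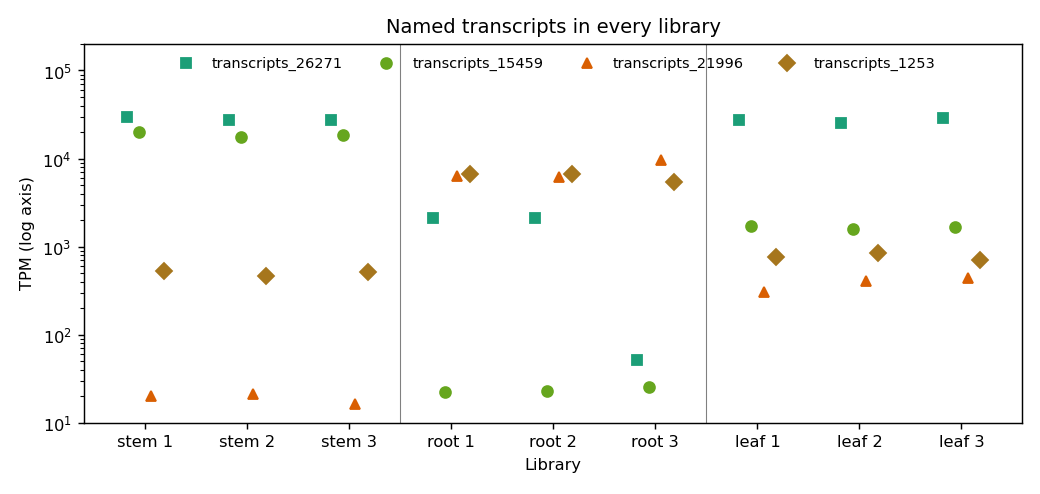
TPM (log axis) of 4 transcripts in each stem, root and leaf library; each symbol is a transcript and each point a single library. The root libraries differ most for transcripts_26271, at 2100, 2088 and 51.9 TPM.

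Of the 10 highest transcripts of root, 5 stayed below 1 TPM in every stem library. The transcript at rank 2 of root, 261 bases long, stood at 26465, 26250 and 16989 TPM in root replicates 1, 2 and 3, while stem had 0, 0.903 and 0 TPM and all leaf libraries 0 TPM. That at rank 3, 246 bases long, stood at 10298, 10296 and 23221 TPM in root, with 0, 0.494 and 0.498 TPM in stem and 0 TPM in leaf. Both were high in every root library, and their order differed between the root samples. Whether such transcripts belong to the plant was not tested, since the files give no sequences. Only 2 transcripts were among the 10 highest of both tissues, the 406-base and the 251-base transcript described above.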

How the data were processed

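The authors used tools that include fastp 0.23.2 and Salmon 1.10.0, per the submitters' processing notes. Options and reference transcripts were not given in the sources used here. Libraries were poly(A)-selected and strand-specific, per the labels' protocols. Per the file headers, each deposited table gives estimated counts of reads and TPM for 37051 transcripts. The deposited estimated counts were not whole (beyond 0.001) for 39.6% to 50.3% of transcripts.

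Estimated counts were rounded, root replicates 1 and 2 were averaged, and 3 leaf, 2 root and 3 stem samples were fitted with edgeR 4.0.16 in R 4.3.3: expression filter by tissue, TMM, robust quasi-likelihood test of stem minus root with 1 mean per tissue. TMM factors were 0.75 to 0.79 in stem and 1.16 and 1.26 in root. Adjustment ran over all 24564 transcripts. Standard errors come from the fold change and its F statistic. Alternatives used DESeq2 1.42.0, limma 3.58.1 (pseudocounts 1 and 0.1 TPM), other scalings, filters and thresholds, a replicate block, and libraries left out. Floors cover counting error only. Transcripts, lists and rules were chosen with earlier results of these data known. The 4 transcripts described singly are the 2 per direction with the highest TPM in the lowest library of the higher tissue, among calls that held with each root sample, with at least 10 reads in all 6 libraries and no overlap.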

Additional observations from a re-analysis of the deposited data

How the results depend on the processing

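The total of called transcripts ranged from 11262 to 14937 over the settings that keep all libraries or only root replicate 3 as root. The lowest, with root replicate 3, had its own expression filter: on the transcripts of the fit with both root samples, root replicate 3 alone gave 10801 and root replicates 1 and 2 alone 10668. The total ranged from 10701 to 12791 with a library left out. Calls higher in stem ranged from 4721 to 5111 and higher in root from 5590 to 7805 with a library left out, the extremes of 5111 and 5590 without root replicate 3. No transcript called in the fit with both root samples was called in the opposite direction, at 2-fold or more, under the other settings compared. That comparison did not cover the fits with 1 root sample under other scalings or without a stem library. The 2-fold limit also leaves out smaller reversals. The 251-base transcript had a log2 fold change of 1.29 in the main fit and of -0.64 with limma on log2(TPM + 1) (limma adjusted p = 0.000517). Library totals alone gave 3203 calls higher in stem (23.7% of calls, against 38.9% with TMM) and took the median over every tested transcript from -0.46 to -1.09 (log2 fold change). Limma on log2(TPM + 1) gave a stem share of 28%. In both fits with 1 root sample, library totals gave 2620 transcripts higher in stem and 6954 higher in root, and limma on log2(TPM + 1) 2956 and 7563. Without 1 stem library these counts were 3942 to 3971 and 4036 to 4283. At 100 CPM or more, library totals gave 640 higher in stem and 521 higher in root. The share of the top list common to both tissues was 24% for the top 50, 39.4% for the top 500, 46.4% for the top 1000, 36% by CPM, 29% with either root sample alone, and 27% to 28% without 1 stem library. The 9 libraries as deposited gave 13609 calls, and 12991 with a replicate block; deviations of same-numbered stem and root libraries correlated at 0.023, 0.0039 and 0.018, so the numbers were not taken to pair the libraries; each stem library correlated best with the root library of its number, but root replicate 2 with stem replicate 1 (0.011). The 4 transcripts described singly kept direction and call in 20 settings each, with adjusted p up to 0.035 for transcripts_26271. They were picked among calls that held with both root samples and with each alone, so this follows in part from the choice.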
